A study of Mus musculus with 6 samples.

Results

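Accessible chromatin around 8 transcription factor genes of astrocyte identity, Sox9, Sox2, Sox8, Sox21, Lhx2, Rorb, Pax6 and Emx2, was compared between V1 astrocytes with and without the glucocorticoid receptor (GR). Peaks were taken when their summit lay in the body of one of these genes or within 200 kb of it, by the GENCODE gene models on mm10. After summits of the 6 libraries were merged into non-overlapping sites reaching 200 bp to each side, 602 sites lay in these windows, and 485 of them, those with peaks in 2 or more libraries, were tested, of 160877 tested across the genome. The nuclei came from the primary visual cortex (V1) of GR fl/fl mice at postnatal day 21 (P21). All animals, controls included, thus carried the floxed receptor gene Nr3c1. Pups were injected at P0 to P1 with an AAV2/5 vector in which the GfaABC1D promoter drives Cre together with EGFP-KASH, followed by the 4x6T element (GR-KO), or with the same vector carrying ΔCre, an inactive recombinase, in place of Cre (GR-con). The GfaABC1D promoter, a short form of the Gfap promoter, directs expression to astrocytes, and EGFP-KASH marks the nuclear envelope, so only nuclei that carried the virus could be sorted as DRAQ5+/GFP+. There were 3 libraries per condition, each of 50000 sorted events from V1 tissue that was pooled across 3 to 4 animals by the labels, so spread between single mice cannot be seen.

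ATAC-seq reads where the Tn5 transposase can insert adapters into open DNA, and a peak marks a promoter or distal element that is accessible in at least part of the nuclei. The 8 factors are DNA-binding proteins inherited from the neural progenitors of the cortex. SOX9 and SOX2 keep progenitors and astrocytes in a glial state, SOX8 belongs to the same SOXE group as SOX9, and SOX21 is a SOXB factor that counteracts SOX2. LHX2, PAX6 and EMX2 pattern the cortical primordium, and RORB is an orphan nuclear receptor used both in astrocytes and in layer 4 neurons. Genes of this kind are typically surrounded by many distal enhancers spread over gene-poor intervals.

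The sequences of 9 sites are given first, because the results below turn on them. They are the sites with a peak in all 6 libraries that either had the smallest p near their gene or were called when ranked by −log10 p. Each is the 201 bp around a site centre on the plus strand of GRCm38.p6 (mm10), read from the RefSeq genome, and is named by its distance in bp from the start of the gene, positive downstream. Capitals mark letters of the motifs sought on both strands, which were SOX (ACAAAG or ACAATG), LHX (TAATTA), ROR (AGGTCA), NFI (TTGGCA), AP-1 (TGANTCA), the GR half-site (AGAACA, or TGTTCT on the other strand) and the full GR palindrome, which none of these windows held. The first 4 sites ranked lower in GR-KO and the last 5 ranked higher.
Emx2 +96093, chr19:59554365-59554565: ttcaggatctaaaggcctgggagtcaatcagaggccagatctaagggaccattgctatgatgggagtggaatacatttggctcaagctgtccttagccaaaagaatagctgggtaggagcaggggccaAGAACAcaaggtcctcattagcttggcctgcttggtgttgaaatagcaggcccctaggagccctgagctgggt
Sox2 -141037, chr3:34509268-34509468: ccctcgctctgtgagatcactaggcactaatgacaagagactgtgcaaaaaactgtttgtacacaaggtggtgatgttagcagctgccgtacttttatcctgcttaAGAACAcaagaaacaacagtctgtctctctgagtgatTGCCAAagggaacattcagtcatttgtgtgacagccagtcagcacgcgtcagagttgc
Sox2 +50682, chr3:34700987-34701187: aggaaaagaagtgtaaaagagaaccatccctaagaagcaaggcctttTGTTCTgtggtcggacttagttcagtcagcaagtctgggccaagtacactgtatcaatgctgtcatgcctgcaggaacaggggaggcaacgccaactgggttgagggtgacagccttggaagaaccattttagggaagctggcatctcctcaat
Sox8 -21877, chr17:25592463-25592663: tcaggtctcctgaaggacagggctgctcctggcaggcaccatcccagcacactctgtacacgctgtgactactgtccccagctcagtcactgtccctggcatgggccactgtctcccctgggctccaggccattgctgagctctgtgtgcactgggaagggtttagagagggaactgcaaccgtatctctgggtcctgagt
Rorb +152940, chr19:18958156-18958356: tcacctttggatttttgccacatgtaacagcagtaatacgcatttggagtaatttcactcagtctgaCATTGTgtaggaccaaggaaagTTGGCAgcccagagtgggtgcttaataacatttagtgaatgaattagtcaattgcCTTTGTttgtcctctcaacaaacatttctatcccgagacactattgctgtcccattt
Rorb +70265, chr19:19040831-19041031: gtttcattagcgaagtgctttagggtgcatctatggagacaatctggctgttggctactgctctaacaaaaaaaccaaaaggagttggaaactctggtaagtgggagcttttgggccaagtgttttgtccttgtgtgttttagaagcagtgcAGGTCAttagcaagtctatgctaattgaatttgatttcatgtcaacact
Sox2 -88550, chr3:34561755-34561955: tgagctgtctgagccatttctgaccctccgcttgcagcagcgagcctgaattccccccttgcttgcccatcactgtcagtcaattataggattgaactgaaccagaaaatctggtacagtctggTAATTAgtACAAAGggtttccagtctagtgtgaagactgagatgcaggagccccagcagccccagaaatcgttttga
Sox9 +153013, chr11:112935137-112935337: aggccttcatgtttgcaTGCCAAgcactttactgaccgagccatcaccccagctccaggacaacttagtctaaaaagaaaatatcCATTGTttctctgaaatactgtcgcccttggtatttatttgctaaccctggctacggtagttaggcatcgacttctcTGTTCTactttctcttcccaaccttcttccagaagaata
Pax6 +33911, chr2:105702711-105702911: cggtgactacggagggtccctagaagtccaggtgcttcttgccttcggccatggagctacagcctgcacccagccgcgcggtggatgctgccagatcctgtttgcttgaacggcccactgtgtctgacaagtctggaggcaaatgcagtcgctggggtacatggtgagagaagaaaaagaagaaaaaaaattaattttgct
The GR half-site lay in 3 of the 4 windows that ranked lower, all but that of Sox8, and in 1 of the 5 that ranked higher, that of Sox9. Over the genome it lay in 17.3% of all tested sites, in 26.8% of those lower and in 14.6% of those higher at an unadjusted p under 0.05. The Rorb window at 152940 bp held both SOX words and the NFI word, that at 70265 bp held the ROR word, and those of Sox8 and of Pax6 held none of the words sought. A match of this length is a description of the window and not of binding.

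In the 6 lists, 185393, 184618 and 198929 peaks were called in GR-con 1, 2 and 3, and 179462, 183971 and 184056 in GR-KO 1, 2 and 3. The lists give no read counts, so sequencing depth is unknown here, and a longer list may come from a deeper library. At Nr3c1, the targeted gene, the site of smallest p among 17 tested in its body was intronic. Its fold over local background was 17.4, 17.4 and 14.3 in GR-con and 6.68, 4.73 and 6.36 in GR-KO (adjusted p = 0.024, limma). It was picked for its p and the other sites are not given here, so it is no independent check of the labels. Astrocyte identity was checked at marker promoters. All 8 astrocyte markers had a promoter peak in all 6 libraries, whereas the myelin genes Mog and Mag, Sox10 and the microglial genes Cx3cr1, C1qa and Aif1 had none in any library. Of 6 neuronal markers, 3 had a peak in all libraries (Rbfox3, Snap25 and Gad1), and the median percentile of the neuronal list was 51.3 to 59.4 in GR-con and 39.1 to 48.8 in GR-KO. Of 6 markers of oligodendrocytes and their precursors, 2 had a peak in every library (Pdgfra and Cspg4), as had 1 of 4 microglial markers (P2ry12) and 3 of 4 vessel markers. The part of other cells in the results below was not tested. In bulk nuclei, fewer cells with an open site and less open chromatin per cell cannot be told apart.

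The promoters of all 8 genes were open in every library and ranked near the top of each list. By −log10 p, the strongest peak within 1 kb of a transcript start had a median percentile over the 8 genes of 96.0 to 96.2 in the GR-con lists and 96.1 to 96.6 in the GR-KO lists, above the 88.8 to 89.5 of the 8 astrocyte markers. The plot of promoter percentiles shows the 8 genes beside the marker lists. Of the 485 tested sites, 31 lay at a promoter of one of the 8 genes, 65 elsewhere in their bodies, 24 at promoters of other coding genes and 365 in none of these. Rorb, a long gene, accounted for 48 of the 65 sites in gene bodies.

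**Figure D1:**
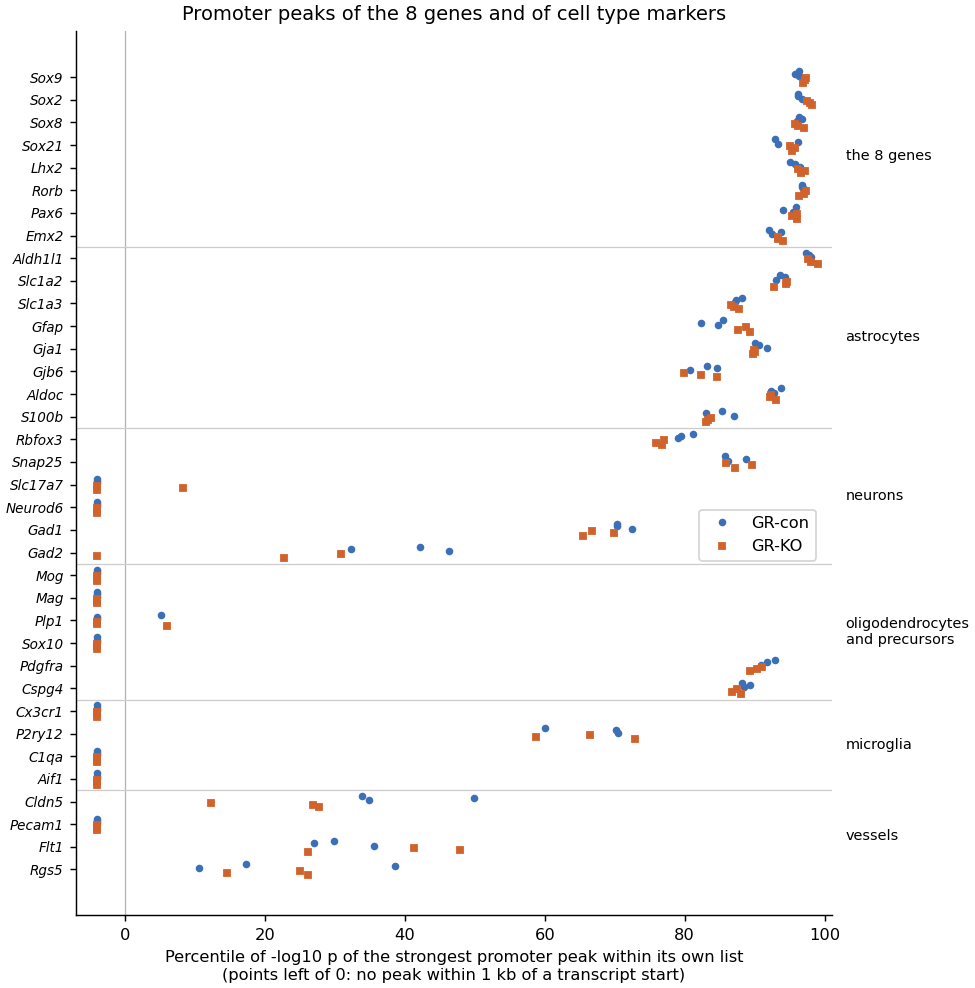
Percentile, within its own peak list, of the −log10 p of the strongest peak within 1 kb of a transcript start (x axis) for the 8 genes and for marker genes of 5 cell classes (y axis), with circles for the 3 GR-con and squares for the 3 GR-KO libraries. All points of the 8 genes lie near the right edge, and genes without a promoter peak are drawn left of 0.

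None of the sites nearest to a transcript start of the 8 genes passed the test. At Sox9, the site 98 bp upstream of the start had fold values of 9.71, 9.5 and 9.02 in GR-con and 11.0, 10.3 and 9.99 in GR-KO. At Sox2, the site 420 bp upstream had 9.46, 9.61 and 9.18 in GR-con and 10.6, 10.4 and 10.8 in GR-KO. Every GR-KO library was above every GR-con library at both, by a ratio of means of 1.11 and 1.12. To compare libraries, the folds of the sites were ranked within each library, with absent peaks sharing the lowest rank, and expressed as normal scores, so that a score difference of 1 is 1 SD of all sites. Ratios of mean fold are given as a description, since the scale of fold can differ between lists, and the tests rest on ranks. The score difference was 0.12 (SE 0.0647, adjusted p = 0.491) at Sox9 and 0.13 (SE 0.0634, adjusted p = 0.444) at Sox2, both by limma, and ranked by the −log10 p of the peak the Sox2 promoter reached an adjusted p of 0.0665.

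Values at the other 6 were as follows. At Sox8 the fold was 10.0, 11.1 and 9.53 in GR-con and 10.3, 10.1 and 10.4 in GR-KO, and at Sox21 it was 9.19, 11.1 and 8.3 against 10.7, 10.3 and 10.2. The groups overlapped at both. At Lhx2 the site at the start had 9.15, 10.3 and 7.78 in GR-con and 9.36, 10.3 and 10.3 in GR-KO. At Rorb, GR-KO libraries had 13.9, 13.1 and 13.0, and the mean of the 3 GR-con libraries was 12.7 (SD 0.681). The Pax6 site nearest to a transcript start lay at an internal promoter 6478 bp into the gene, with 7.88, 7.07 and 7.24 in GR-con and 8.21, 7.58 and 7.92 in GR-KO. The Emx2 site chosen in this way, 246 bp from an internal start, was weak, with 3.4, 2.76 and 2.76 in GR-con and 3.91, 2.9 and 3.42 in GR-KO. The score was higher in GR-KO at all 8 promoter sites, by 0.03 to 0.25, and none passed the test. For comparison, over 13974 promoter sites of coding genes taken in the same way, 63.4% had a higher score in GR-KO and the median difference was 0.04. By rank of fold the groups did not overlap, with GR-KO above, at 4 of the 8 (Sox9, Sox2, Rorb and Pax6), and across promoter sites of all coding genes this share was 13.9%, against 4.17% with GR-KO below.

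Sites were denser than at the median coding gene around all 8 genes, and above the upper quartile around 4 of them. Tested sites numbered 59 at Sox9, 68 at Sox2, 82 at Sox8, 37 at Sox21, 69 at Lhx2, 72 at Rorb, 50 at Pax6 and 48 at Emx2. Per 100 kb of window this was 20.3 at Sox8, 16.9 at Sox2, 16.0 at Lhx2, 14.5 at Sox9, 12.4 at Rorb, 11.8 at Emx2, 11.7 at Pax6 and 9.16 at Sox21, where the median over 21938 coding genes was 9.08 (quartiles 4.61 and 13.6). The Sox8 window also held 11 other coding genes, whereas those of Sox9 and Sox2 held 0. A peak was present in all 6 libraries at 297 of the 485 sites (61.2%), close to the 62.0% of all tested sites. The share was lowest at Rorb (50.0%) and Sox2 (51.5%) and highest at Sox8 (70.7%) and Sox21 (70.3%).

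Counted as summits before any merging, Sox2 and Rorb had fewer peaks in GR-KO. Near Sox2, 75, 73 and 91 peaks were called in GR-con and 69, 68 and 68 in GR-KO. Near Rorb the counts were 80, 74 and 81 in GR-con and 70, 71 and 70 in GR-KO. In both windows every GR-KO library lay below every GR-con library, also as a share of its list, and the exact permutation test (two-sided) gave p = 0.1 for counts and for shares, the smallest value that 3 libraries against 3 allow. All GR-KO lists were shorter than all GR-con lists, and of the 20564 coding-gene windows with any peak 9.83% separated in this way by number and 5.51% by share. The separation did not hold under every alternative. With the same number of peaks taken from each list the mean difference at Rorb went from -8 to -3.33 (exact p = 0.5), and within 50 kb that at Sox2 went from -11.33 to -2.33 (exact p = 0.4). Counted as distinct intervals, since 1 interval can hold several summits, Sox2 had 61, 55 and 64 in GR-con and 56, 52 and 47 in GR-KO, which overlapped (exact p = 0.2), and Rorb had 62, 57 and 62 against 54, 55 and 49 (exact p = 0.1). Sox8 and Emx2 also separated by intervals, with fewer in GR-KO (exact p = 0.1 for both). The difference in summits at Lhx2 went from -0.67 to -4.67 within 50 kb, without overlap of the groups (exact p = 0.1), and to 3 with equal lists (exact p = 0.5). How many of all coding-gene windows separate by intervals or within 50 kb was not counted. These separations thus have no background share and are only described. Sox21 had 49, 51 and 49 peaks against 45, 46 and 48 (exact p = 0.1), but as a share of the list the groups overlapped (exact p = 0.6). Emx2 had 56, 59 and 57 peaks against 48, 56 and 48 (exact p = 0.2). At 200 kb the remaining 4 genes overlapped between conditions, with exact p from 0.4 to 0.8 in permutation tests of their counts. In all, the windows held 544, 550 and 595 peaks in GR-con and 513, 540 and 525 in GR-KO, which was 0.293%, 0.298% and 0.299% of the GR-con lists and 0.286%, 0.294% and 0.285% of the GR-KO lists. GR-con 3 had both the longest list and the highest count at Sox2.

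**Figure D2:**
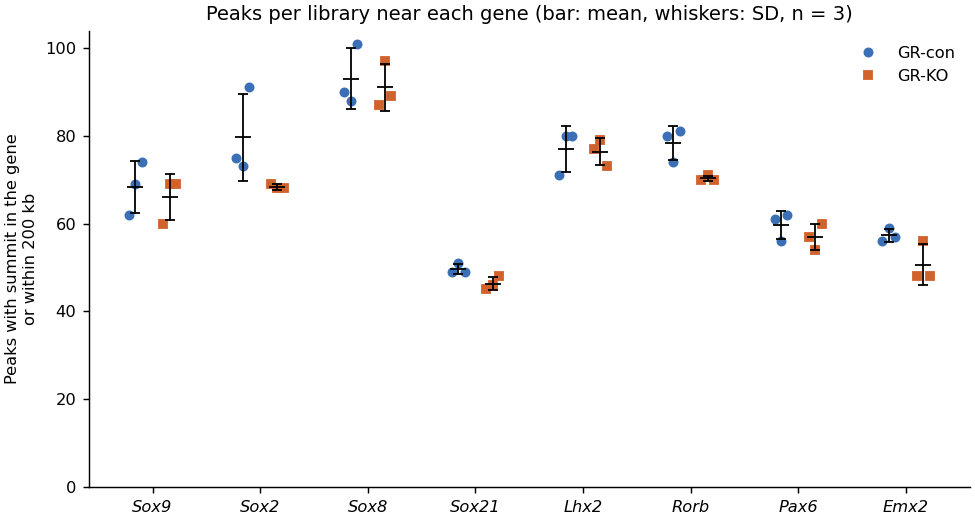
Number of peaks with a summit in each gene or within 200 kb of it (y axis) for each of the 8 genes (x axis), with 1 point per library and black bars for the mean and SD of 3 libraries. GR-KO points lie below all GR-con points at Sox2, Rorb and Sox21.

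The strongest site of each window was open in every library and none passed the test. At Rorb it lay 25904 bp upstream of the start, with fold values of 28.3, 26.6 and 24.3 in GR-con and 31.8, 29.4 and 27.8 in GR-KO. The folds overlapped, but its percentile within the list was 98.7 to 99.5 in GR-con and 99.6 to 99.9 in GR-KO. Its score was higher by 0.53 (SE 0.209, adjusted p = 0.371, limma), and ranked by −log10 p the adjusted p was 0.0524. At Pax6 the strongest site lay 186049 bp downstream, in an intron of Elp4, the neighbouring Elongator subunit gene whose introns are known to hold distal Pax6 enhancers. Its fold was 29.9, 28.8 and 28.7 in GR-con and 31.1, 28.4 and 27.0 in GR-KO, with a score difference of -0.00323.

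At Sox8 the strongest site, in an intron of the lincRNA gene AC134908.3 127951 bp upstream, had 28.6, 28.8 and 27.9 in GR-con and 27.5, 24.9 and 26.3 in GR-KO. The folds did not overlap, and the score was lower by a difference of -0.31 (SE 0.153, adjusted p = 0.455, limma). At Lhx2 the strongest site lay 26197 bp upstream, with 23.9, 24.8 and 18.8 against 22.5, 26.2 and 21.6. At Emx2 it lay 116150 bp downstream, with 22.0, 22.2 and 19.0 against 22.1, 21.4 and 22.9. The conditions overlapped at both. The strongest sites of Sox9, Sox2 and Sox21 had mean folds of 17.7 ± 0.264, 14.8 ± 1.81 and 17.3 ± 1.02 (SD, n = 3) in GR-con and 18.8 ± 1.4, 15.5 ± 0.645 and 19.0 ± 2.28 (SD, n = 3) in GR-KO. Adjusted p at these 8 sites ranged from 0.371 to 0.998.

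Across the 485 sites, no site passed the test by rank of fold in either direction. Over all 160877 sites the same test called 204 lower (0.127%) and 98 higher (0.0609%) in GR-KO, and with 1 library left out these fell to between 0 and 3 lower and to 0 higher. At an unadjusted p under 0.05, 28 of the 485 were lower (5.77%) and 27 higher (5.57%), against 6.02% and 6.12% of all sites. The smallest adjusted p was 0.0823, at Sox2. Ranked by −log10 p, which follows read depth more closely than fold does, 2 sites were called lower (0.412%, against 0.835% of all sites) and 5 higher (1.03%, against 0.76%). Of the 5, 2 had a peak in only 1 GR-con library and so entered the test through GR-KO, where they were high, and their p is no support for a difference. Over all sites these calls by −log10 p numbered 1344 and 1223, and with 1 library left out they fell to between 177 and 809 lower and between 195 and 377 higher. The median score difference was 0.03 over the 485 sites and 0.02 over all sites by fold, and the score was lower in GR-KO at 44.7% and 46.7% of them. Ranks of fold did not overlap, with every GR-KO library below, at 28 sites (5.77%, against 7.57% of all sites), and with every GR-KO library above, at 72 sites (14.8%, against 11.6%). These shares lay near those of all sites. The plot of score differences along the windows shows most sites close to 0.

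**Figure D3:**
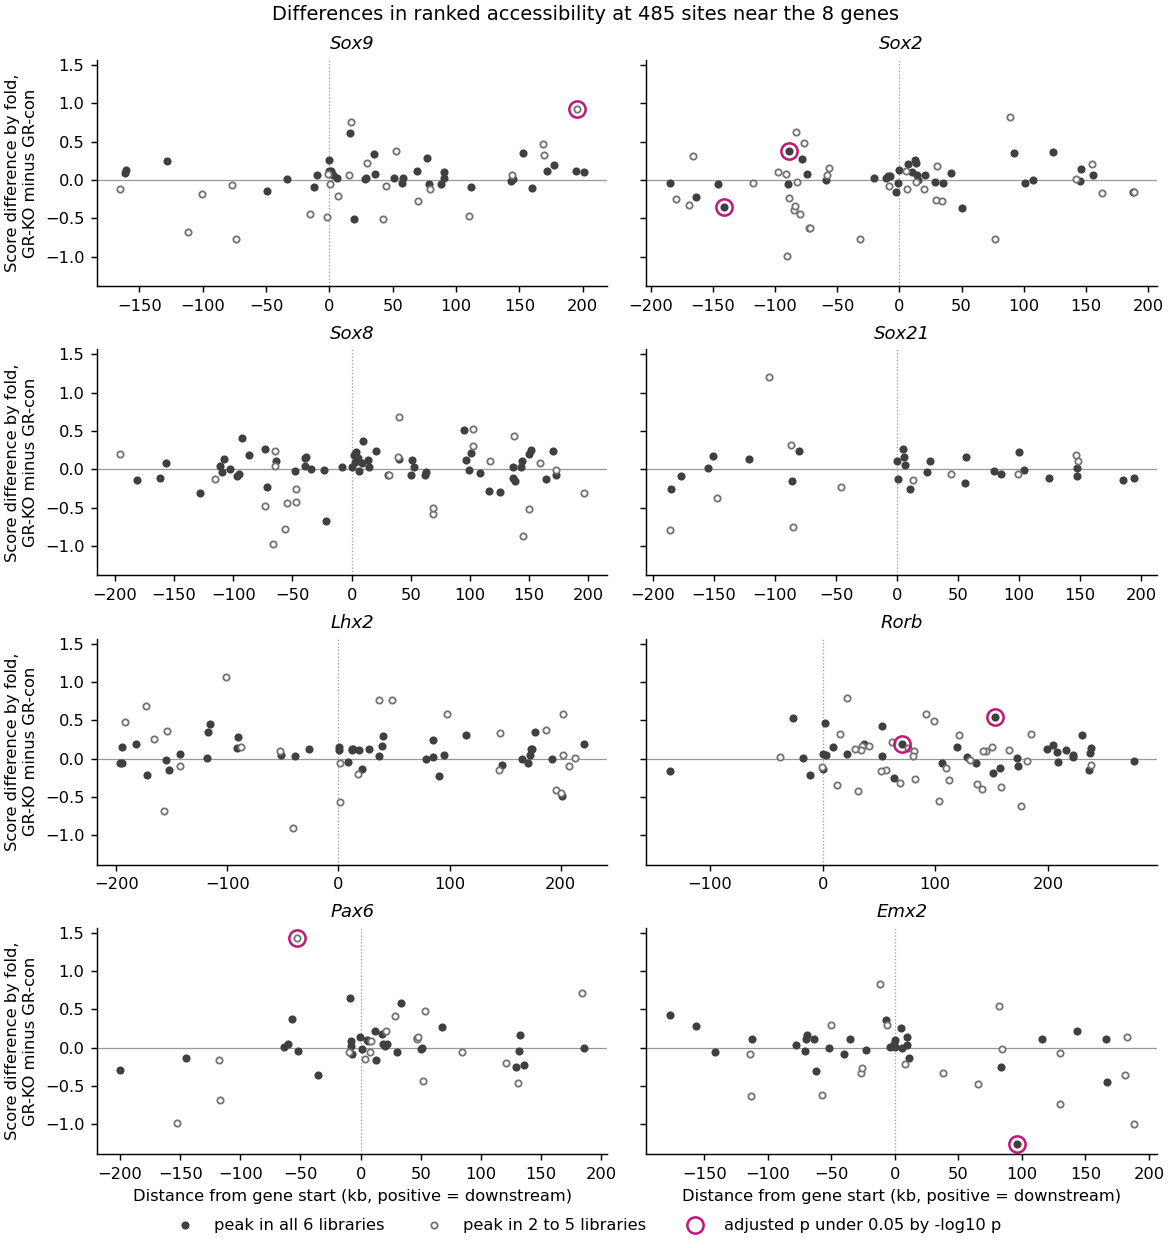
Difference of the mean normal score of fold, GR-KO minus GR-con (y axis), at each tested site against its distance from the gene start in kb (x axis), 1 panel per gene, with filled points for sites with a peak in all 6 libraries and open points for the rest. Rings mark the 7 sites called by rank of −log10 p, 2 of them below 0.

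The most negative score difference among the 485 sites was at Emx2, 96093 bp downstream of its start in an intron of the lincRNA gene 2700089I24Rik. The fold there was 16.7, 17.9 and 7.44 in GR-con and 3.43, 3.03 and 4.68 in GR-KO, and the −log10 p was 84.6, 108 and 26.1 against 6.47, 4.95 and 11.0. The groups did not overlap on either value, and GR-con 3 lay between the other GR-con libraries and GR-KO. The mean fold in GR-KO was 0.265 times that in GR-con. By rank of −log10 p the score fell by 1.07 (SE 0.178, adjusted p = 0.00268, limma), and by rank of fold the difference was -1.25 (SE 0.231, adjusted p = 0.0826). With 1 library left out the adjusted p by −log10 p ranged from 0.0103 to 0.161, and the call was lost without GR-con 1 (0.16) or GR-con 2 (0.161).

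The call at Rorb went the other way. In an intron 152940 bp into the gene, the fold was 3.64, 3.57 and 3.59 in GR-con and 6.62, 5.66 and 5.31 in GR-KO, and the −log10 p was 18.4, 17.9 and 19.6 against 73.6, 54.4 and 42.8. The 3 GR-con values were nearly equal and all GR-KO values were higher, with a mean fold 1.63 times as high. By −log10 p the score rose by 0.58 (SE 0.0996, adjusted p = 0.00389, limma), and by fold the difference was 0.55 (SE 0.128, adjusted p = 0.132). Leaving out 1 library gave an adjusted p of 0.0191 to 0.0703 by −log10 p, and the call was lost without GR-con 1 (0.0672), GR-con 2 (0.0703) or GR-KO 1 (0.0663). The window of the single GR palindrome among the 485 sites (0.206%, against 0.326% of all sites) was also a Rorb intron, 141651 bp into the gene, with weak peaks of fold 4.15, 2.62 and 2.95 in GR-con and 2.27 and 2.99 in GR-KO 1 and 3, and none in GR-KO 2.

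**Figure D4:**
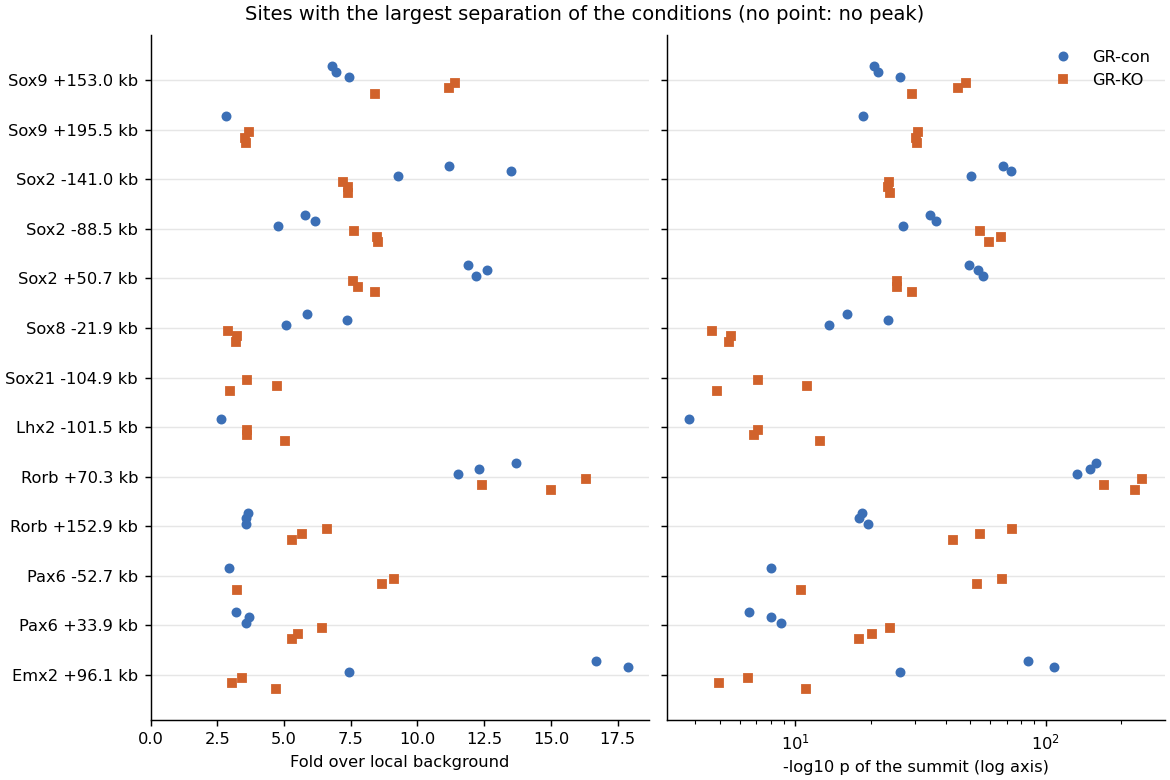
Fold over local background (left) and −log10 p on a log axis (right) of the peak in each library at 13 sites, the site of smallest p near each gene and those called by −log10 p, with circles for GR-con and squares for GR-KO libraries and no point where a library had no peak. The Emx2 site 96093 bp downstream and the Rorb site 152940 bp downstream separate the conditions in opposite directions.

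Around Sox2, differences of both signs occurred. The site 50682 bp downstream, in an intron of the lincRNA gene Gm3143, had fold values of 11.9, 12.6 and 12.2 in GR-con and 7.58, 7.76 and 8.42 in GR-KO, a ratio of means of 0.648. Its score difference was -0.37 by fold (SE 0.0686, adjusted p = 0.0823, limma), and the adjusted p by −log10 p was 0.135. A further 5 sites were called by −log10 p and were picked after their values were seen. In an intron of Sox2ot, the noncoding transcript that overlaps Sox2, the site 141037 bp upstream had 11.2, 13.5 and 9.27 in GR-con and 7.22, 7.38 and 7.39 in GR-KO, and its score by −log10 p fell by 0.42 (SE 0.0883, adjusted p = 0.0185, limma). The site 88550 bp upstream, also in a Sox2ot intron, had 5.79, 6.15 and 4.76 in GR-con and 7.61, 8.48 and 8.51 in GR-KO, and its score by −log10 p rose by 0.35 (SE 0.0836, adjusted p = 0.0419). Groups did not overlap at any of these sites, all of which were picked by their p. The first of these calls held only without GR-con 3 (0.0498) when a library was left out, with up to 0.165 otherwise, and the second held in none of the 6 omissions (adjusted p from 0.111 to 0.188).

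The other calls by −log10 p were at Rorb, Pax6 and Sox9. In the Rorb intron 70265 bp from the start, the fold was 13.7, 12.3 and 11.5 in GR-con and 16.3, 12.4 and 15.0 in GR-KO (adjusted p = 0.0494 by −log10 p, limma). The folds overlapped, and with a library left out the call held only without GR-KO 2 (0.0325). At Pax6, in an intron of the antisense gene Pax6os1 52742 bp upstream, only GR-con 2 had a summit among the controls (fold 2.92), whereas GR-KO had 9.12, 8.67 and 3.25. A peak with its main summit elsewhere covered this site in all 6 libraries, with fold values of 10.4 to 11.5 in GR-con and 9.86 to 10.8 in GR-KO, and counted by covering peaks the score difference was -0.04. At Sox9, 195483 bp downstream, GR-con 1 alone among the controls had a summit (2.84) and GR-KO had 3.69, 3.55 and 3.57, while the covering peaks had 12.9 to 15.0 in GR-con and 14.7 to 15.2 in GR-KO. Both calls thus rested on secondary summits, and both sites were tested only because of their GR-KO peaks.

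The sites of smallest p near the remaining genes did not pass the test by rank of fold or of −log10 p, assigned by summit. At Sox9, 153013 bp downstream, the fold was 6.8, 6.96 and 7.44 in GR-con and 11.4, 11.2 and 8.42 in GR-KO (difference 0.35, SE 0.0917, adjusted p = 0.165, limma). At Pax6, in an exon of Elp4 33911 bp downstream, it was 3.2, 3.68 and 3.58 against 6.41, 5.53 and 5.28 (0.58, SE 0.138, adjusted p = 0.136). Peaks that covered the Pax6 site were present in GR-KO only, so its call in the alternative that counts covering peaks followed from the filter. At Sox8, in an intron of its neighbour Lmf1, it was 5.86, 7.34 and 5.07 against 2.89, 3.22 and 3.18 (-0.67, SE 0.148, adjusted p = 0.117). Values were higher in GR-KO at Sox9 and Pax6 and lower at Sox8, without overlap at any of these sites. They were picked for their small p, so the separation is no further support. Of all tested sites, 7.57% separated by rank of fold with GR-KO below and 11.6% with GR-KO above. At Lhx2, in an exon of Dennd1a 101470 bp upstream, GR-con 2 alone among controls had a peak, of 2.63, against 3.61, 3.6 and 5.05 in GR-KO. At Sox21, 104934 bp upstream, no GR-con library had a peak and GR-KO had 3.61, 4.73 and 2.99. Both sites were tested only because of their GR-KO peaks, and no p is given.

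Peaks present in 1 condition only were few. A peak in every GR-con and no GR-KO library occurred at 5 of the 485 sites (1.03%, against 1.15% of all sites), and a peak in every GR-KO and no GR-con library at 2 (0.412%, against 0.618%). In Sox2ot, 90241 bp upstream of Sox2, the GR-con peaks had fold values of 4.07, 3.34 and 3.15. In an intron of Lhx2, 1523 bp from the gene start and 288 bp from an internal transcript start, which makes it a promoter site by the 1 kb limit, they had 2.56, 2.5 and 2.54, and 156833 bp upstream of Lhx2, in Dennd1a, they had 4.35, 1.99 and 2.25. The 2 such sites of Emx2 lay 57440 bp upstream (2.27, 2.71 and 2.84) and 187874 bp downstream (3.21, 2.63 and 5.24). The GR-KO sites were that of Sox21 above and a site 88544 bp downstream of Sox2 with 2.35, 3.03 and 2.81. By fold, the peaks at these 7 sites lay between percentile 2.16 and 57.9 of their lists. A peak near the calling threshold can miss that threshold in 1 library and pass it in another. The −log10 p ran from 2.33 at the Lhx2 site 156833 bp upstream to 16.1 at the Sox2ot site, so not all of these peaks lay near the threshold. All 7 entered the test only through the condition that had the peaks, so no p is given for them. The Sox2ot site without a GR-KO peak lay in the same gene as the one 88550 bp upstream that ranked higher there. Its neighbouring site, 89830 bp upstream of Sox2, had a peak in all 6 libraries. The fold at that neighbour was 5.82, 6.96 and 6.24 in GR-con and 5.65, 5.43 and 6.03 in GR-KO.

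The letters of the factors' own motifs were counted at these 485 sites and at all tested sites. ACAAAG lay within 100 bp of the centre of 16.9% of them and of 17.8% of all tested sites, ACAATG in 12% and 9.65%, TAATTA in 6.6% and 5.83%, and AGGTCA in 12.4% and 11.0%. TTGGCA lay in 17.9% and 20.7% and TGANTCA in 5.98% and 6.28%. The GR half-site AGAACA lay in 19.2% of the 485 and 17.3% of all tested sites. Split by direction at an unadjusted p under 0.05, it lay in 14 of the 28 lower sites (50.0%) and 7 of the 27 higher sites (25.9%). Over the genome the same split gave 26.8% of 9683 lower and 14.6% of 9844 higher sites. The 28 and 27 sites come from 8 windows and were not tested for this difference.

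Sites near 24 other transcription factor genes of the same families or of the cortical glial lineage were counted in the same way. Of their 1865 tested sites, 0 were called lower and 1 higher by fold (near Nfib, adjusted p = 0.0462, limma), where 0.127% and 0.0609% of all sites were. At an unadjusted p under 0.05, 88 of the 1865 were lower and 102 higher, where 6.02% and 6.12% of all sites were. By −log10 p, 15 were called lower (0.804%) and 7 higher (0.375%), against 0.835% and 0.76% of all sites. The 485 sites had 2 lower and 5 higher, and 2 of the 5 were tested only through their GR-KO peaks. The difference between the lists was not tested. Near these other genes the median score difference by fold was 0.03, and a peak in all 6 libraries was present at 59.4% of sites. Peaks only in GR-con occurred at 24 sites (1.29%, against 1.15% of all sites) and only in GR-KO at 13 (0.697%, against 0.618%). The median of single members ran from -0.04 at Sox21 to 0.10 at Lhx2, where 34.8% of sites scored lower in GR-KO.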

How the data were processed

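ATAC-seq peak lists of 3 GR-con and 3 GR-KO libraries were used. The authors called peaks in each library separately with the ENCODE ATAC-seq pipeline (peak p threshold 0.01, mm10 per the labels) and deposited, for each peak, a capped score (not used here), its fold enrichment (a ratio to local background), and its p-value and q-value, each as −log10. One interval can be listed several times with different summits. No read counts were used, so the edgeR test of the study was not repeated.

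Sites reached 200 bp to each side of a summit and were accepted from the highest within-list rank of fold downwards unless they overlapped an accepted site. Peaks were assigned to a site by their summit, the strongest standing for its library. Testing required peaks from 2 or more libraries. Within-library ranks of fold, absent peaks sharing the lowest, were expressed as normal scores and tested with limma 3.58.1 (R 4.3.3, variance trend, two-sided, Benjamini-Hochberg over all sites, no block). This step was tested on simulated scores, where it recovered only part of the shifted sites at the observed spread, so a site that was not called may still differ. Each list has its own depth and background, so tests used ranks, and folds and their ratios are descriptions. Absent peaks lack a value, so small peaks near the calling threshold weigh on the scores. Peak numbers per gene were compared by exact permutation tests, without adjustment over the 8 genes although it had been planned. Genes were from GENCODE M21 and sequences from GRCm38.p6, read with pysam 0.24.0 in Python 3.11.15. A window does not tie a site to its gene.

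For each gene the named sites were the site nearest to a transcript start within 1 kb, the strongest, that of smallest p, those called, and up to 3 with peaks in only 1 condition. Alternatives were ranks of −log10 p, covering peaks, a q-value under 0.01, equal lists, more libraries per site, windows of 100 and 50 kb, no variance trend, a replicate block and leaving out libraries. Leaving out libraries from the ranks of −log10 p and counting distinct intervals were added after seeing the data. The members, lists and tests were chosen with earlier results of these data known. Each biological replicate was a pool of animals, so p-values measure the spread between pools.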

Additional observations from a re-analysis of the deposited data

How the results depend on the processing

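Counts of called sites depended on the value ranked and on the spread model. Over all sites, 204 lower and 98 higher calls by fold became 1344 and 1223 by −log10 p, 449 and 248 with covering peaks, 1075 and 769 without the variance trend, and 0 and 0 both at an adjusted p of 0.01 and with the replicate block. Sites with a peak in all 6 libraries gave 169 higher. With 1 library left out, lower calls by fold ranged from 0 to 3 and higher calls from 0 to 0. Near the 8 genes, lower calls went from 0 to 2 by −log10 p, 1 with covering peaks, 1 among sites with peaks in all 6 libraries and 2 without the trend. Higher calls went from 0 to 5 by −log10 p, 2 with covering peaks and 2 without the trend. All 4 sites called without the trend had peaks in 1 condition only and entered the test through it, so these calls are no support for a difference. Under the replicate block, 0 sites near the 8 genes were called in either direction, as without it. Deviations of libraries with the same number correlated by 0.0295, -0.0048 and 0.025, so the numbers were not taken to pair the libraries. By −log10 p, leaving out 1 library left 177 to 809 lower and 195 to 377 higher calls over all sites and 0 to 2 lower and 0 to 2 higher calls near the 8 genes, 0 of both without GR-con 2, and 0 lower and 1 higher without GR-con 1. Peaks only in GR-con numbered 3 within 100 kb and 1 within 50 kb, and 6 to 16 without a library, against 5. Those only in GR-KO numbered 1 at a q-value under 0.01, 1 within 100 kb and 0 within 50 kb, and 3 to 6 without a library, against 2. The mean difference in peaks, GR-KO minus GR-con, turned from -0.67 to 3 at Lhx2 with equal lists (-3 within 100 kb and -4.67 within 50 kb) and from -2.67 to 0.67 at Pax6 within 50 kb, and the separation was lost at Rorb with equal lists (-3.33) and at Sox2 within 50 kb (-2.33) and in distinct intervals (-8.33), a count added after seeing the data. Score differences changed sign at the strongest sites of Lhx2 (-0.0529 to 0.223 without a library), Pax6 (0.13 by −log10 p, -0.161 to 0.116 without a library) and Emx2 (-0.00854 by −log10 p), and at Pax6 -52742 with covering peaks (-0.0372). Of 415 alternatives for 35 named sites, 394 kept direction and side of the threshold and 9 changed sign. A further 12 passed the threshold that the value by fold had missed, 7 of them by −log10 p, 4 without the trend and 1 with covering peaks. The 4 without the trend, 2 of the 7 by −log10 p and the 1 with covering peaks entered the test only through the condition where they were high. Those passes are no support for a difference. The causes were not tested beyond the covering peaks given above. Depth is unknown, and with 3 libraries per condition a site near the calling threshold cannot be separated from an absent one.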
